A study of Mus musculus with 6 samples.

Results

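The genes described here are 34 genes of ribosome biogenesis and the nucleolus, taken by name from a deposited table of read counts with 33924 gene rows. All 34 were found in the table, and all 34 passed the filter on low counts that left 13406 genes to be tested. RNA had been sequenced from mouse acute myeloid leukaemia cells carrying MLL-AF9, a fusion oncogene brought in by retrovirus, in 3 libraries per group. One group had been started from LSK cells, a marrow population rich in stem cells (libraries LSK 44, LSK 45 and LSK 46), and the other from granulocyte-macrophage progenitors, which are committed myeloid cells (GMP 5, GMP 11 and GMP 19). In both groups the immortalized GFP+ cells had been transplanted, with wild-type marrow support cells, into C57BL/6 mice irradiated with 950 cGy, and leukaemia cells from the marrow of moribund animals had been kept in medium with 15% serum, 20 ng/mL SCF, 10 ng/mL IL-3 and 10 ng/mL IL-6. Sex, age and any treatment with an inhibitor are not given for any library, and nothing in the labels ties a library to its own transduction, mouse or culture, so the p-values given below stand for the spread among these 6 libraries and that spread may be technical. The title of the study asks how the cell in which a leukaemia starts affects how primed it is for apoptosis and how it responds when the histone demethylase LSD1 is inhibited.

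Ribosomes are assembled in the nucleolus. RNA polymerase I transcribes the ribosomal DNA into a long precursor RNA, small nucleolar ribonucleoproteins (snoRNPs) guide its methylation, pseudouridylation and early cleavage, and separate sets of assembly factors then build the small and the large subunit. MYC is known to activate many of these genes together with genes of polyamine and nucleotide synthesis, by binding E-boxes, of which CACGTG is the canonical form. In myeloid leukaemia the nucleolus is also known for nucleophosmin (Npm1), whose gene is often mutated in patients.

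Promoter sequences are shown for the genes that passed the test, because the gene for MYC was itself higher in the LSK-derived leukaemias. RefSeq promoters (GRCm38.p6, from 250 bases before to 50 after the start of a transcript) were found for 28 of the 34 genes, and 4 of the 5 that passed had one. Capitals mark CACGTG, which reads the same on both strands, and CACGCG, a related E-box searched on both strands and so also written as CGCGTG. Mybbp1a (chr11:72441077-72441376, plus strand) and Nop16 (chr13:54590025-54590324, minus strand) held at least 1 of them, and Polr1a (chr6:71908803-71909102, plus strand) and Polr1b (chr2:129100746-129101045, plus strand) held neither.
Mybbp1a: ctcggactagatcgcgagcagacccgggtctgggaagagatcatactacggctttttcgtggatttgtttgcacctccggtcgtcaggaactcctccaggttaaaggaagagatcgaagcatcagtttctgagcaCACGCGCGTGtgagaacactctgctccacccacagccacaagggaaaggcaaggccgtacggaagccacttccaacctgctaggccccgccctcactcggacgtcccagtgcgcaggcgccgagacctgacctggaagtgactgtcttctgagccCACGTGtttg
Nop16: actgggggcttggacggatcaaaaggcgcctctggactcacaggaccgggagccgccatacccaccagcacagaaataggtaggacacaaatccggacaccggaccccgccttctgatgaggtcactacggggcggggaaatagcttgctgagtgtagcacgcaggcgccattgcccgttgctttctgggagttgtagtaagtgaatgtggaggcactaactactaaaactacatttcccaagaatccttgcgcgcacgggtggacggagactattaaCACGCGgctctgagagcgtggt
Polr1a: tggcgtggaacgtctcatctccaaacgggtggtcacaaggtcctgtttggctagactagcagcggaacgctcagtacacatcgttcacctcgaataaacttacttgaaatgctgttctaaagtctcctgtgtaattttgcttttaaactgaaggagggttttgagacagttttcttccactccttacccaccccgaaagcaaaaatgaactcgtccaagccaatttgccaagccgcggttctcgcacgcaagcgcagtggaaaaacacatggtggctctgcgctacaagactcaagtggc
Polr1b: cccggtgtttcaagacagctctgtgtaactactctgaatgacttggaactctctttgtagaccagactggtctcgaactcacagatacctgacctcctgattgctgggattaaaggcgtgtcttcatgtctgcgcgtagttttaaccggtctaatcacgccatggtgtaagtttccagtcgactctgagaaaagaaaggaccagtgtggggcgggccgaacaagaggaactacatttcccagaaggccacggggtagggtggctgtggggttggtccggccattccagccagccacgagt

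In the Mybbp1a promoter CACGCG and CGCGTG overlap in 1 run of capitals, and CACGTG lies 41 bases into the transcript. CACGTG was present in the promoters of 8 of the 28 genes (28.6%). The same letters were in 1058 of the 8788 tested genes with a promoter and in 8.09% of all 27025 genes with one, tested or not. CACGCG, on either strand, was present for 11 of the 28 (39.3%), 20.1% of tested genes and 10.5% of all genes. These are descriptions of letters in a window, not of binding. The other 7 genes with CACGTG are shown as the motif with up to 12 bases on each side, to let the flanks be compared, and Nme1 has 2 annotated starts, each with its own copy. The stretches lie at chr6:125131811-125131840 (Nop2, plus strand), chr10:88826765-88826789 (Utp20, minus), chr11:3963965-3963994 (Pes1, plus), chr11:69672595-69672624 (Eif4a1, minus), chr11:74898092-74898121 (Tsr1, plus), chr11:93968273-93968302 and chr11:93968037-93968066 (Nme1, minus) and chr17:71616220-71616249 (Wdr43, plus).
Nop2: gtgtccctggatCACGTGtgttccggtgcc
Utp20: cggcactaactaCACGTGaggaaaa
Pes1: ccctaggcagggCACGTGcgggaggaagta
Eif4a1: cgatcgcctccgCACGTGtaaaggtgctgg
Tsr1: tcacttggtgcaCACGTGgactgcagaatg
Nme1, upstream start: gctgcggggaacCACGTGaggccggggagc
Nme1, downstream start: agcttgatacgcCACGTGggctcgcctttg
Wdr43: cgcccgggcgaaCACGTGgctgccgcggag
None of these 7 genes passed the edgeR test of expression between the groups.

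Total counts per library ran from 16640929 (LSK 44) to 33885428 (GMP 11), and no gene of the set had fewer than 534 counts in a library. Values are CPM, read counts set to a common library size after scaling by the trimmed mean of M-values (TMM), and a log2 fold change is LSK-derived minus GMP-derived with an approximate standard error (SE). The labelled myeloid state was visible in both groups, with the summed level of 8 myeloid progenitor markers between 3581 and 5215 CPM in LSK-derived and between 3255 and 5889.6 CPM in GMP-derived libraries. B cell markers summed to between 14.8 and 22.1 CPM in LSK-derived and between 3.89 and 8.79 CPM in GMP-derived libraries. Pax5 and Ms4a1 had 0 counts, and of the 2 tested B cell markers 1 was called higher and 1 did not pass. T and NK cell markers summed to at most 7.57 CPM with Cd3e and Ncr1 at 0 counts. Erythroid markers summed to between 15.2 and 109.5 CPM in LSK-derived and between 1.28 and 1.84 CPM in GMP-derived libraries, and neutrophil markers to between 46.9 and 178 CPM and between 17.4 and 567 CPM. Of the neutrophil markers 6 were tested, and 2 were called lower, 1 higher and 3 did not pass, with a median log2 fold change of -3.81. The groups did not overlap in 5 of them, and in 2 of these 5 the LSK-derived libraries lay above. Of the 8 myeloid progenitor markers 3 were called lower, 1 higher and 4 did not pass. Among all tested genes 13.9% were called lower and 11.8% higher, and in 45.4% the groups did not overlap. Stroma markers summed to 189.8 to 332 CPM and 147 to 227 CPM (Col1a2 at 0 counts), and macrophage markers to 84.3 to 131 CPM and 80.7 to 176 CPM. Only 3 of the 8 stroma markers had enough counts to be tested. Pecam1 had the highest mean level of that list, and which cells gave its reads was not tested. The part of these cell type differences in the results below was not tested, and in bulk RNA a smaller share of cells and less RNA per cell cannot be told apart.

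The ribosome biogenesis genes were slightly higher in the LSK-derived leukaemias, by a median of 1.18-fold, and few of them passed the test on their own. Mybbp1a, Polr1a, Polr1b, Fbl and Nop16 were called higher, by 1.28-fold to 1.48-fold, in edgeR's quasi-likelihood test at an adjusted p below 0.05, and none was called lower. These 5 of 34 genes (14.7%) stand beside 11.8% of all tested genes called higher, 13.9% called lower and 25.7% called in either direction, so the share is near the background. The log2 fold change was above 0 in 31 of the 34 genes (31 or 32 under the other scalings), against 51.4% of all tested genes, and its median was 0.24 against 0.01. Their log2 fold changes spanned -0.05 to 0.57, and no gene of the set reached a 1.5-fold change in this fit. Mybbp1a passed 1.5-fold with upper-quartile scaling (log2 fold change 0.59), without LSK 45 (0.64) and without GMP 11 (0.65). At an unadjusted p below 0.05, 12 genes were higher, beside 18.6% of tested genes, and 0 lower, beside 2771 of the 13406. DESeq2 and limma voom also called 0 lower, beside 2220 and 1754 of the 13406. DESeq2 called 9 of the set higher, adding Polr1c, Noc4l, Ncl and Npm1, beside 14.4% of tested genes, and edgeR without a filter on low counts called 6, adding Noc4l, beside 6.65%. Tested against a minimum change of 1.5-fold, 0 of the 34 passed, beside 3.38%. All 3 LSK-derived libraries were above all 3 GMP-derived ones for 13 of the 34 (38.2%) and below them for none, where 22.5% of tested genes lay entirely above and 45.4% did not overlap in either direction.

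**Figure D1:**
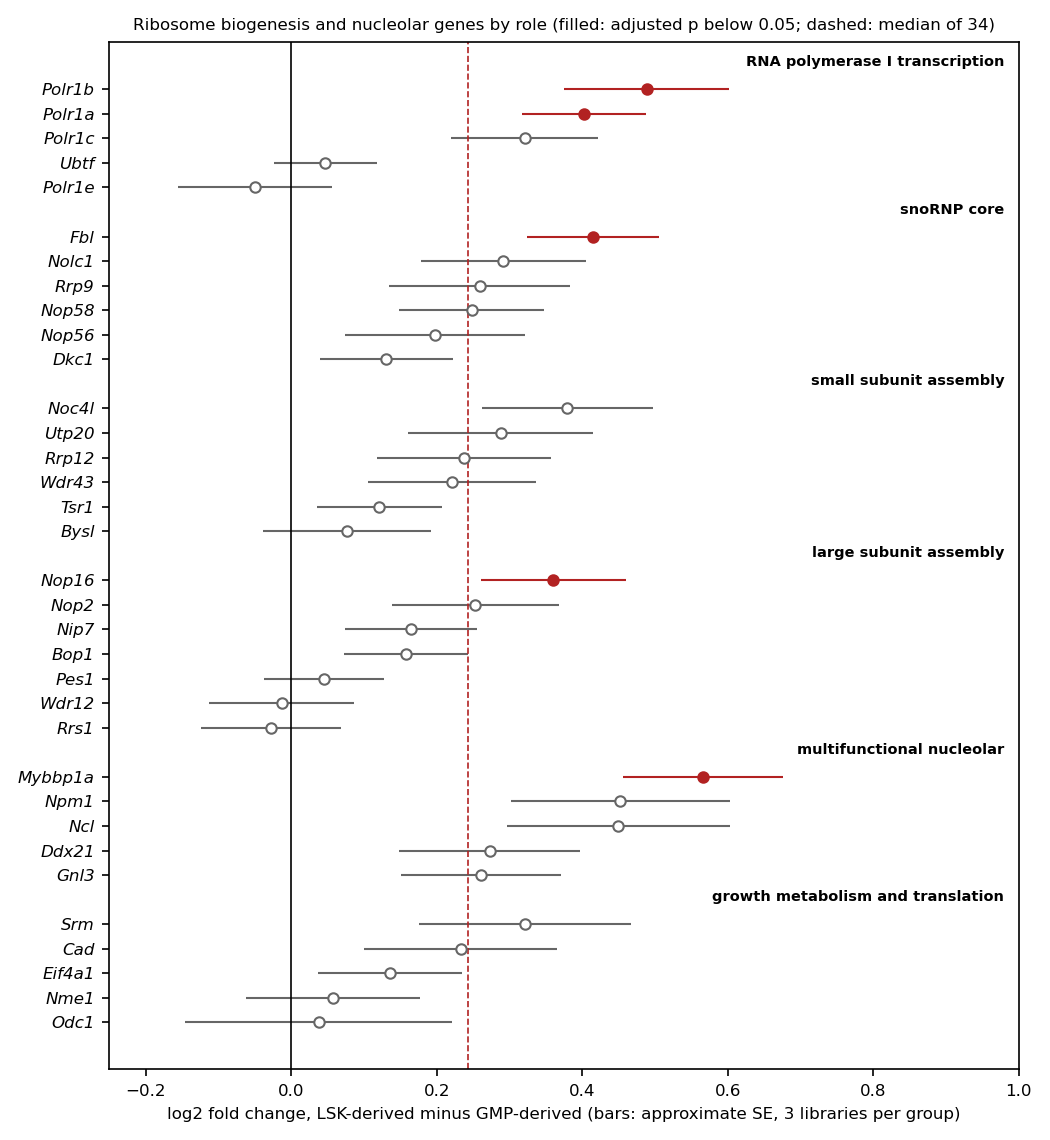
Log2 fold change (horizontal axis, LSK-derived minus GMP-derived) of each of the 34 genes, grouped by role, with bars for the approximate SE from 3 libraries per group. Filled points mark the 5 genes with an adjusted p below 0.05, and the dashed line marks the median of 0.24, with 31 of the points to the right of 0.

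The spread between libraries of a group was of the same size as the difference between the groups, and it ran the same way in most of these genes. LSK 44 held the highest level of all 6 libraries in 26 of the 34 genes (1968 of the 13406 tested genes). GMP 19 held the lowest in 28 (2997 of the 13406). Within the LSK-derived group LSK 45 was the lowest in 31 of the 34 (4863 of the 13406). The median deviation from a gene's mean over the 6 libraries, on the log2 scale, was 0.22 in LSK 44, 0.00 in LSK 45 and 0.11 in LSK 46, against -0.03 in GMP 5, -0.02 in GMP 11 and -0.30 in GMP 19. LSK 45 and the pair GMP 5 and GMP 11 thus lay close together, and the most distant libraries were LSK 44 and GMP 19. Over all tested genes the same deviation stayed between -0.01 and 0.01 in every library, a closeness to 0 that the TMM scaling largely sets. LSK 44 was also the library with the fewest counts, and GMP 19 (33859969 counts) and GMP 11 had the most. GMP 11 was the lowest library in 0 of the 34 (1513 of the 13406 tested genes). The part of depth in this order was not tested. Without LSK 44 the median log2 fold change was 0.17 with 28 genes above 0, and edgeR called 0 of the 34 (6 at an unadjusted p below 0.05), beside 6.25% of tested genes called higher. Leaving out GMP 19 gave a median of 0.16, 28 genes above 0 and 3 called (Polr1a, Polr1b and Mybbp1a), beside 7.89% of tested genes. With LSK 46 left out, 1 gene was called (Mybbp1a), beside 5.62%. Without LSK 45 the median was 0.31 and 5 genes were called, beside 9.68%, with Noc4l in place of Nop16. With GMP 11 left out the count was again 5, beside 7.84%. Leaving out GMP 5 gave a median of 0.26, 32 genes above 0 and 6 called, beside 11.1%.

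**Figure D2:**
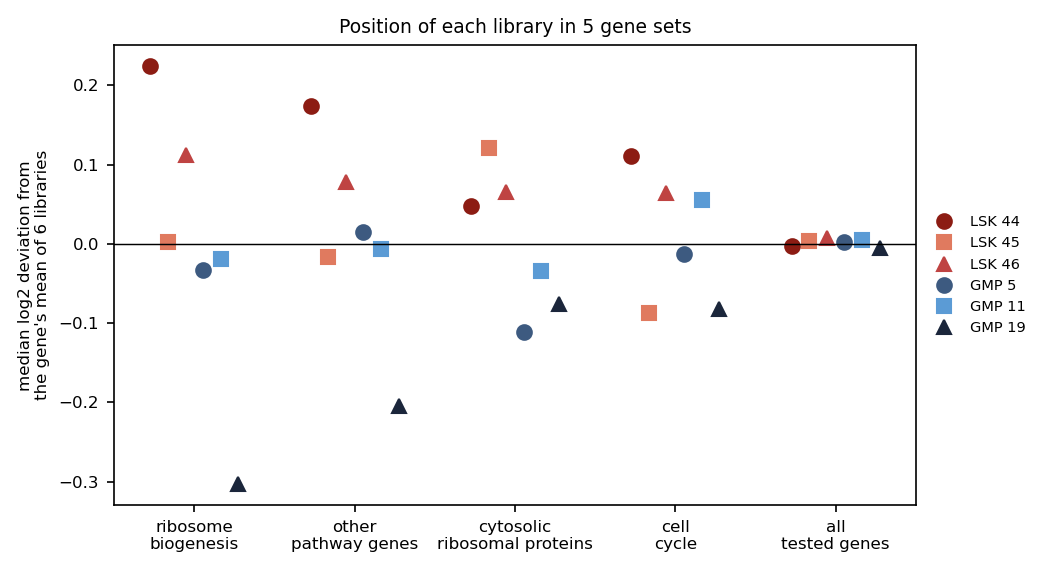
Median deviation of each library from a gene's mean over 6 libraries (vertical axis, log2 scale) for the 34 ribosome biogenesis genes, 110 other genes of the pathway, 80 cytosolic ribosomal protein genes, 20 cell cycle genes and all 13406 tested genes. For the ribosome biogenesis genes LSK 44 lies highest at 0.22 and GMP 19 lowest at -0.30, while LSK 45 lies near 0.

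Of the 5 genes for transcription by RNA polymerase I, 2 were called higher in the LSK-derived leukaemias, beside 11.8% of all tested genes. These 2 encode the pair of large catalytic subunits. Polr1a was at 151, 134 and 147 CPM (LSK 44, 45, 46) and at 110.1, 117 and 99.2 CPM (GMP 5, 11, 19), with a log2 fold change of 0.40 ± 0.09 and an edgeR adjusted p of 0.0161. Polr1b was at 148, 128 and 145 CPM against 107, 108 and 84.6 CPM in the same order of libraries (log2 fold change 0.49 ± 0.11, edgeR adjusted p = 0.0214). The groups did not overlap for either gene, and GMP 19 was the lowest library for both. Both calls were lost without LSK 44 or LSK 46, with edgeR adjusted p up to 0.0645 for Polr1a and 0.0798 for Polr1b. Polr1c, which encodes a subunit shared with RNA polymerase III, was at 64.4, 63.7 and 71.9 CPM against 60.1, 51.6 and 48.5 CPM and did not pass (edgeR adjusted p = 0.0570), though the groups did not overlap. It was called by DESeq2 and by edgeR without GMP 5 (adjusted p = 0.0198, the lowest over its alternatives). Polr1e, which encodes a subunit of the polymerase's peripheral heterodimer, was at 32.3, 27.9 and 29.1 CPM against 32.9, 32.4 and 27.2 CPM. Ubtf, whose HMG-box protein keeps the ribosomal DNA in an open state, was at 338, 307 and 333 CPM against 317, 331 and 298 CPM. For Polr1e and Ubtf the groups overlapped, with log2 fold changes of -0.05 ± 0.11 and 0.05 ± 0.07.

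**Figure D3:**
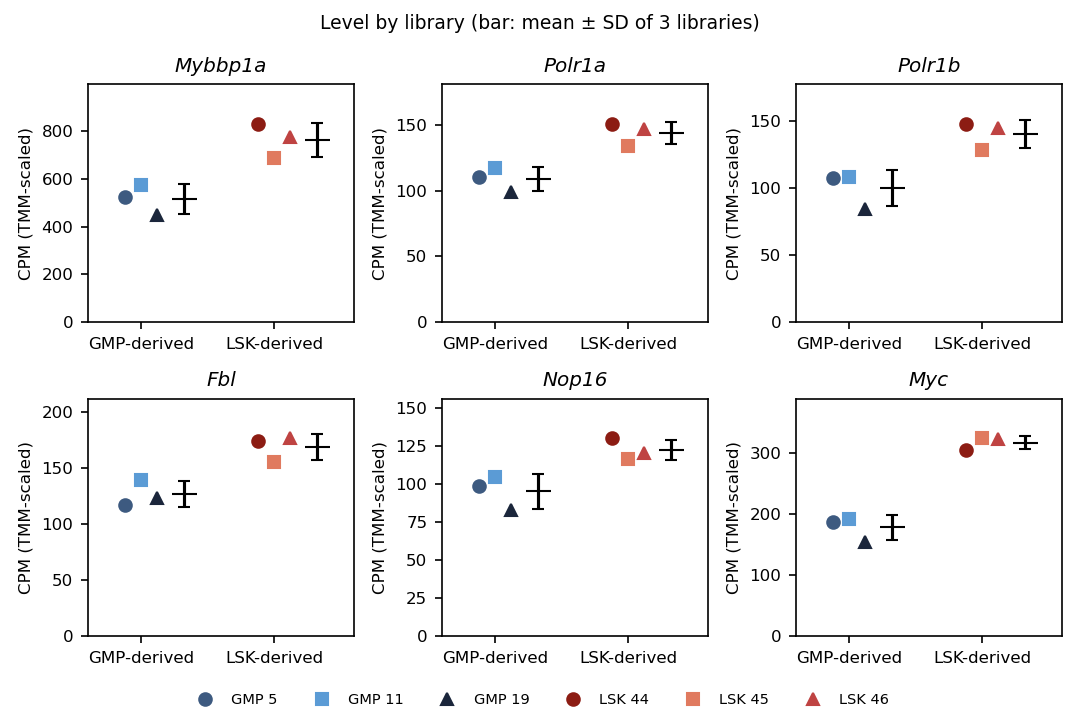
CPM (vertical axes, starting at 0) in each library of the 5 ribosome biogenesis genes with an adjusted p below 0.05 and of Myc, with the mean ± SD of 3 libraries beside the points. In all 6 panels the LSK-derived libraries lie above the GMP-derived ones, for Myc at 305 to 324 CPM against 155 to 192 CPM.

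Among the 6 snoRNP genes, only Fbl was called in the edgeR fit to all libraries, beside 11.8% of all tested genes called higher. This gene encodes the methyltransferase fibrillarin. Fbl was at 175, 156 and 177 CPM (LSK 44, 45, 46) and at 117, 139.5 and 124 CPM (GMP 5, 11, 19), with a log2 fold change of 0.41 ± 0.09 and an edgeR adjusted p of 0.0175. Its call was lost without LSK 44, LSK 46 or GMP 19 (edgeR adjusted p up to 0.0685). Fibrillarin works in a core with the proteins of Nop56 and Nop58. Nop58 was at 435, 381 and 422 CPM against 371, 368 and 304 CPM, with no overlap between groups, and did not pass (log2 fold change 0.25 ± 0.10, edgeR adjusted p = 0.110). Nop56 was at 440.2, 378 and 402 CPM against 389, 383 and 292 CPM, where only GMP 19 lay apart from the rest (log2 fold change 0.20 ± 0.12). Nolc1, which encodes a snoRNP chaperone, was at 505, 417 and 445 CPM against 374, 417 and 325 CPM (log2 fold change 0.29 ± 0.11, edgeR adjusted p = 0.103). LSK 45 and GMP 11 had the same level of Nolc1 at this rounding. Dkc1, the pseudouridine synthase gene, was at 351, 323 and 323 CPM against 333, 308 and 269 CPM (log2 fold change 0.13 ± 0.09). Its exons overlap those of Mpp1 on the opposite strand, and Mpp1 was itself called lower (85.9 ± 20.6 and 183 ± 68.5 CPM, log2 fold change -1.09, edgeR adjusted p = 0.0468), and the part of Mpp1 reads in the Dkc1 values was not tested. Rrp9, whose protein belongs to the snoRNP of early precursor cleavage, was at 63.3, 51.6 and 63.8 CPM against 45.9, 57.1 and 46.2 CPM (log2 fold change 0.26 ± 0.12). For Dkc1 and Rrp9 the groups overlapped and neither passed.

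None of the 6 genes for assembly of the small subunit was called in the edgeR fit to all libraries. The background was 11.8% of all tested genes called higher, so a count of 0 among 6 genes says little. All 6 log2 fold changes lay above 0, from 0.08 to 0.38. At an unadjusted p below 0.05 the count was 1 (18.6% of all tested genes were higher), and DESeq2 called 1 (14.4%). That gene was Noc4l, which encodes a nucleolar assembly factor, at 117, 92.0 and 109 CPM (LSK 44, 45, 46) and at 84.3, 88.3 and 71.4 CPM (GMP 5, 11, 19). The groups did not overlap for Noc4l (log2 fold change 0.38 ± 0.12, edgeR adjusted p = 0.0540), and it was called with upper-quartile scaling, with no filter, by DESeq2 and without LSK 45. Utp20, a large scaffold of the small subunit processome, was at 172, 135 and 147 CPM against 133, 134 and 105 CPM (log2 fold change 0.29 ± 0.13). LSK 45 and GMP 11 lay next to each other there, within the SD of either group. Wdr43, another processome component, was at 336, 288 and 310.2 CPM against 291, 286 and 225 CPM (log2 fold change 0.22 ± 0.12). Rrp12, which acts in export of the pre-ribosome, was at 119, 94.4 and 102 CPM against 79.3, 101 and 87.2 CPM (log2 fold change 0.24 ± 0.12). In both genes LSK 45 fell among the GMP-derived values. Tsr1, a factor of late cytoplasmic maturation, was at 118 ± 9.20 and 109 ± 7.92 CPM (mean ± SD, n = 3 in each group), and Bysl, an early nucleolar factor, at 73.6 ± 11.2 and 69.8 ± 3.56 CPM. Bysl turned from a log2 fold change of 0.08 to -0.04 without LSK 44. Its exons overlap those of the cyclin gene Ccnd3 on the opposite strand (148 ± 10.0 against 197 ± 50.8 CPM, edgeR adjusted p = 0.165), whose part in the Bysl values was not tested.

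In the group of 7 genes for assembly of the large subunit, only Nop16 was called, beside 11.8% of all tested genes called higher. The 3 genes of the PeBoW complex were not called. Nop16, a nucleolar protein of early large subunit particles, was at 129.9, 117 and 120.2 CPM (LSK 44, 45, 46) and at 98.4, 105 and 82.6 CPM (GMP 5, 11, 19), with a log2 fold change of 0.36 ± 0.10 and an edgeR adjusted p of 0.0389. Its groups did not overlap, and leaving out any 1 library other than GMP 11 ended its call (adjusted p up to 0.127). PeBoW, which is needed to process the large subunit RNA, is formed by the products of Pes1, Bop1 and Wdr12. Bop1 was at 177, 156 and 171 CPM against 145, 164 and 143 CPM (log2 fold change 0.16 ± 0.08). Pes1 was at 206, 182 and 182 CPM against 195, 186 and 171 CPM (log2 fold change 0.05 ± 0.08). Wdr12 was at 231, 214 and 207 CPM against 250.0, 208 and 200.0 CPM (log2 fold change -0.01 ± 0.10). The groups overlapped for all 3 PeBoW genes, and for Wdr12 the highest library was GMP 5. Nop2, the gene of a methyltransferase of large subunit RNA, was at 215 ± 20.6 against 179.9 ± 23.1 CPM (mean ± SD, log2 fold change 0.25 ± 0.12, edgeR adjusted p = 0.151). Nip7, an RNA-binding assembly factor gene, was at 95.9, 86.6 and 91.9 CPM against 86.5, 86.2 and 72.2 CPM, with no overlap between groups and no call (log2 fold change 0.16 ± 0.09). Rrs1, which helps to bring the small ribosomal RNA of the large subunit into the particle, was at 122, 104 and 113 CPM against 108, 128 and 109.8 CPM (log2 fold change -0.03 ± 0.10), and here GMP 11 was the highest library.

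The 5 genes of multifunctional nucleolar proteins had a median log2 fold change of 0.45 (range 0.26 to 0.57), the largest median of the 6 roles. The roles were set by hand with earlier results known and their ranges overlapped, and the order of roles was not tested. Of the 5 genes 1 was called, beside 11.8% of all tested genes called higher. Mybbp1a, the gene of a MYB-binding protein that acts in the nucleolus, was at 828, 688 and 773 CPM (LSK 44, 45, 46) and at 524, 572 and 450.2 CPM (GMP 5, 11, 19). It was 1.48-fold higher, the largest difference of the 34 (log2 fold change 0.57 ± 0.11, edgeR adjusted p = 0.0121), and lost its call without LSK 44 (0.0505). Exons of Mybbp1a overlap those of Spns2, which lies on the opposite strand and encodes a sphingosine-1-phosphate transporter, and the strand setting of the read counting is not given in the sources used here. Spns2, chosen after its values were seen, was at 149, 99.3 and 251 CPM in the LSK-derived and at 2.92 ± 0.519 CPM (mean ± SD) in the GMP-derived libraries (log2 fold change 5.84 ± 0.42). Among the LSK-derived libraries Spns2 was highest in LSK 46 and Mybbp1a in LSK 44, and both were lowest in LSK 45. Both were also lower in every GMP-derived library than in any LSK-derived one. The part of Spns2 reads in the Mybbp1a difference was not tested. Nop56, Rrp9, Wdr43, Tsr1, Wdr12 and Gnl3 also share exon positions with a tested gene on the opposite strand, and edgeR called none of those partners after adjustment.

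Nucleolin (Ncl), which binds the precursor RNA, and nucleophosmin (Npm1), a histone and ribosome chaperone, were the most abundant of the 34 per kilobase of coding sequence. Npm1 was at 3052 ± 302 CPM per kb in LSK-derived and 2230.4 ± 423 CPM per kb in GMP-derived libraries, and Ncl at 1463 ± 189 and 1071 ± 189 CPM per kb. Eif4a1 came next at 1116 ± 76.5 and 1015 ± 114 CPM per kb, so that Ncl and Eif4a1 did not differ beyond their spread in the GMP-derived libraries. All other genes of the set were below 310 CPM per kb in both groups. Across libraries, Ncl was at 3474, 2677 and 3156 CPM (LSK 44, 45, 46) and at 2494, 2510.5 and 1809 CPM (GMP 5, 11, 19). Npm1 was at 2929.8, 2402 and 2691 CPM against 2219.9, 2110.5 and 1531 CPM in the same order. Both were 1.37-fold higher on average without overlap between groups, and neither passed (edgeR adjusted p = 0.0726 for Ncl and 0.0670 for Npm1). DESeq2 called both (adjusted p = 0.0153 and 0.0129). With the edgeR test Npm1 was also called without GMP 5 (adjusted p = 0.0493).

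The remaining nucleolar genes were the RNA helicase gene Ddx21 and Gnl3, which encodes the GTPase nucleostemin. Ddx21 was at 697, 556 and 644 CPM against 578, 548 and 444 CPM, with LSK 45 below GMP 5 (log2 fold change 0.27 ± 0.12, edgeR adjusted p = 0.152). Gnl3 was at 297, 272 and 283 CPM against 264, 247 and 199.6 CPM, without overlap (log2 fold change 0.26 ± 0.11, edgeR adjusted p = 0.125). Summed over the 34 genes, the level was 15632, 12935 and 14331 CPM (LSK 44, 45, 46) and 12471, 12351 and 9737 CPM (GMP 5, 11, 19). The lowest LSK-derived sum thus exceeded the highest GMP-derived one by a small margin, and Ncl and Npm1 made up 34.3% to 41.0% of the sum.

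Genes of growth metabolism and translation that are often read as MYC targets had a median log2 fold change of 0.14 (range 0.04 to 0.32). This was the smallest median of the 6 roles set by hand, and the order of roles was not tested. None of the 5 passed in edgeR or DESeq2 after adjustment, beside 11.8% and 14.4% of all tested genes called higher. At an unadjusted p below 0.05 in edgeR the count was 0, beside 18.6%. Their groups overlapped in every case, where 45.4% of all tested genes did not overlap. Srm, the spermidine synthase gene, was at 318, 239 and 279 CPM (LSK 44, 45, 46) and at 253, 232 and 185 CPM (GMP 5, 11, 19), with a log2 fold change of 0.32 ± 0.15. Odc1, which encodes ornithine decarboxylase, the first enzyme of the same polyamine pathway, was at 393, 297 and 350.4 CPM against 417, 335 and 262 CPM (log2 fold change 0.04 ± 0.18). Odc1 had the largest SE of the set, its highest library was GMP 5, and its log2 fold change ranged from -0.11 without GMP 19 to 0.21 without GMP 5. Cad, the gene of the enzyme that starts pyrimidine synthesis, was at 293, 225 and 270.4 CPM against 204, 259.6 and 207 CPM (log2 fold change 0.23 ± 0.13). Nme1, a nucleoside diphosphate kinase gene, was at 72.6 ± 5.05 and 69.8 ± 10.7 CPM (mean ± SD), and reads of its close relative Nme2 could be divided between the genes. Eif4a1, the gene of a translation initiation helicase, was at 1467, 1301 and 1309 CPM against 1350.2, 1278 and 1082 CPM (log2 fold change 0.14 ± 0.10).

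Myc, which encodes the transcription factor MYC, differed between the groups by more than the spread of the libraries. It was at 305, 324 and 323 CPM (LSK 44, 45, 46) and at 188, 192 and 155 CPM (GMP 5, 11, 19), a 1.78-fold difference (log2 fold change 0.83 ± 0.09, edgeR adjusted p = 0.00191). Its call held in all 6 fits that left out a library. Within the LSK-derived group LSK 44 had the lowest Myc level and in 31 of 34 ribosome biogenesis genes the highest. Within the GMP-derived group GMP 19 was the lowest for Myc and in 28 of the 34. The SD of Myc among the LSK-derived libraries was 10.8 CPM, and a relation between these ranks and the Myc level was not tested. Mycn was at 3.93, 0.471 and 12.9 CPM in the LSK-derived libraries and had 0 counts in the GMP-derived ones, and its call was lost in 5 of those 6 fits (adjusted p up to 0.107). Max, which encodes the binding partner of MYC, was at 110.2, 115 and 114 CPM against 115, 109 and 100.2 CPM, an edgeR log2 fold change of 0.06 ± 0.07 that missed the threshold.

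The wider pathway was described by 113 further genes, of which 110 were found and tested. Of these, 11 (10.0%) were called higher in the LSK-derived leukaemias, beside 11.8% of tested genes, 2 lower, beside 13.9%, and 97 did not pass. Their median log2 fold change was 0.17, and 94 of the 110 (85.5%) lay above 0 (94 to 98 under the other scalings), against 51.4% of all tested genes. None of the 9 other genes of RNA polymerase I transcription was called by edgeR, either adjusted or at an unadjusted p below 0.05. Of all tested genes 11.8% and 18.6% were higher at these thresholds, and 1867 and 2771 of the 13406 were lower. The pair with the highest CPM were Polr1d, a small polymerase subunit gene, at 110.0 ± 6.77 and 117 ± 10.9 CPM, and Rrn3, the gene of the initiation factor that links polymerase and promoter, at 109 ± 8.39 and 113 ± 5.64 CPM. Of 13 further snoRNP genes 3 were called higher, beside the same 11.8%, and 0 lower, beside 13.9%. At an unadjusted p below 0.05, 7 were higher, beside 18.6% of all tested genes, and 1 lower, beside 2771 of the 13406. The called genes are named next. These were Nop10, a core protein gene of the pseudouridylation snoRNPs (142 ± 8.96 against 96.5 ± 14.3 CPM, log2 fold change 0.56 ± 0.12, edgeR adjusted p = 0.0144), and Ruvbl2 and Ruvbl1, which encode a pair of ATPases that help to assemble snoRNPs among other complexes (1.37-fold and 1.27-fold higher). Dkc1, whose protein works beside NOP10, had not passed.

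Among 43 further genes of the small subunit, 5 were called higher (11.6%, beside 11.8% of all tested genes), 1 lower (13.9% of all tested genes were) and 37 did not pass. The helicase gene Ddx47 was at 147 ± 7.43 against 117 ± 4.70 CPM, Nol6 at 146 ± 8.67 against 112 ± 8.68 CPM and Aatf at 74.4 ± 1.77 against 58.9 ± 3.74 CPM (log2 fold changes 0.33, 0.38 and 0.34). Mphosph10, a processome scaffold gene, went the other way, at 130.5, 115 and 123 CPM in the LSK-derived and 188, 171 and 154 CPM in the GMP-derived libraries (log2 fold change -0.48 ± 0.09, edgeR adjusted p = 0.0114), and held its call in all 6 fits without a library. In the large subunit list of 45 tested genes, 3 were higher (6.67%), 1 lower and 41 did not pass, below the same shares of all tested genes. Wdr18, which acts in a complex linked to removal of an internal spacer of the precursor RNA, was at 129, 108 and 122 CPM against 73.5, 86.9 and 69.4 CPM (log2 fold change 0.64 ± 0.11, edgeR adjusted p = 0.00760). It also held in all 6 fits without a library. Surf6 and Ppan were higher by 1.23-fold and 1.24-fold, and Pak1ip1 was lower (92.1 ± 4.55 against 122 ± 10.8 CPM, log2 fold change -0.40 ± 0.08). Of the 6 fits without a library, Ppan was called in 1, Surf6, Ruvbl1 and Ruvbl2 in 2 each, Nop10, Nol6 and Aatf in 4 each, and Ddx47 and Pak1ip1 in 5 each. Ppan also lost its call with no filter on low counts. LSK 44 was among the libraries whose absence ended the call for each of these genes except Pak1ip1, which lost it without LSK 46. Without LSK 44, 1 of the 110 was called higher and 2 lower, and without LSK 46 the counts were 2 and 1. They were 5 and 2 without GMP 19. Of all tested genes 6.25%, 5.62% and 7.89% were called higher in the same fits, and 973 of 13712, 980 of 13696 and 1271 of 13668 lower.

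**Figure D4:**
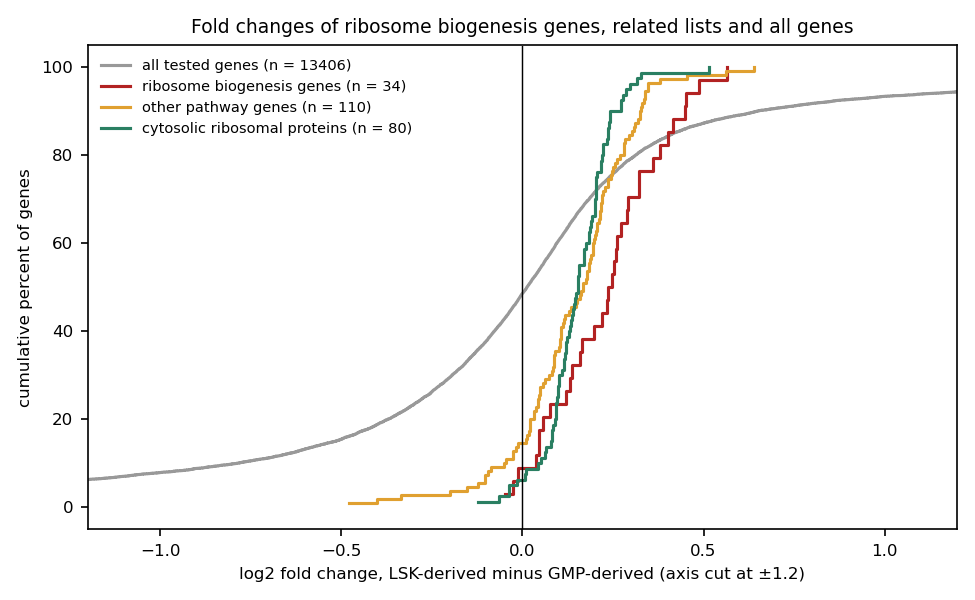
Cumulative percent of genes (vertical axis) by log2 fold change (horizontal axis, LSK-derived minus GMP-derived, leaving out the far tails) for the 34 ribosome biogenesis genes, 110 other pathway genes, 80 cytosolic ribosomal protein genes and all 13406 tested genes. The first 3 curves are steep and lie mostly to the right of 0, with medians of 0.24, 0.17 and 0.15. All tested genes, which include genes with few counts such as Mycn, are centred at 0.01 and spread much wider.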

How the data were processed

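RNA was measured in 6 libraries, 3 from LSK-derived and 3 from GMP-derived MLL-AF9 leukaemia cells, with TRIzol extraction and the TruSeq RNA kit per the labels' protocols. The authors deposited raw read counts per gene symbol. The submitters' processing notes name mm9, DESeq2, HTSeq 0.6.1 and STAR 2.4 without roles. Which annotation and strand setting were used is not given in the sources used here.

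The test was edgeR 4.0.16 under R 4.3.3 (filterByExpr, TMM scaling, robust glmQLFit, glmQLFTest, no covariate), with Benjamini-Hochberg adjustment over 13406 genes and calls at an adjusted p below 0.05. The SE was approximated from the log2 fold change and the root of its F statistic. CPM are TMM-scaled. Levels per kb used the longest coding sequence in GENCODE M21, which also gave exon overlaps. Both it and the RefSeq promoters are on GRCm38, so their coordinates were not joined to the mm9 counts. Taf1a, Tsr3 and Noc2l of the further lists were not analysed here.

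The genes and lists were chosen with earlier results of these data known. Named genes were all 34 of the set, up to 3 called genes per direction and further list by smallest p (the 2 most abundant where none was called), Myc, Mycn and Mki67. Max, Spns2, Mpp1 and Ccnd3 were added after their values were seen. The 6 roles, 4 pathway lists, MYC, cell cycle, ribosomal protein and 7 marker lists were written by hand. Alternatives were other scalings and filters, DESeq2 1.42.0, limma voom 3.58.1, a test against a 1.5-fold minimum, and leaving out each library. The edgeR step was tested on simulated counts. No library repeated another: within groups, pairs differed well beyond counting error (lowest chi-square over degrees of freedom 9.94).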

Additional observations from a re-analysis of the deposited data

How the results depend on the processing

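With all libraries 5 genes of the set were called higher, beside 11.8% of tested genes. The fits without a library called between 0 and 6 of the set higher, beside 5.62% to 11.1%. These were not always the same genes. Without GMP 5 the 6 included Polr1c and Npm1 but not Nop16, and without LSK 45 Noc4l took the place of Nop16. The same fits called between 1750 and 3467 of all genes (3444 with all libraries). Of the other pathway genes they called between 1 and 11 higher (11 with all libraries) and between 1 and 3 lower (2 with all libraries). DESeq2 called 9 of the set (Polr1c, Noc4l, Ncl and Npm1 besides the 5), beside 14.4% of tested genes higher, and 17 other pathway genes higher. The test against a 1.5-fold minimum called 1003 genes, 0 of the set and 0 other pathway genes in either direction, with 0 also at an unadjusted p below 0.05, as it asks for a larger change. Calls in the set were 5 or 6 under the other scalings, filters and limma voom. Among genes that did not pass, signs near 0 turned. Wdr12 was at 0.0123 with upper-quartile scaling. The ranges over fits without a library were -0.0371 to 0.180 for Bysl, -0.0128 to 0.0826 for Pes1, -0.0727 to 0.0859 for Wdr12, -0.0833 to 0.0557 for Rrs1, -0.115 to 0.214 for Odc1 and -0.0409 to 0.172 for Nme1. The cause of these shifts was not tested. No paired analysis was possible because the groups share no replicate number. The lowest count of the set in a library was 534, and the part of depth in these results was not tested.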

Other observations

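The cytosolic ribosomal protein genes had a median log2 fold change of 0.15 towards the LSK-derived leukaemias, with another order of libraries. Of 80 tested, 9 (11.2%) were called higher by edgeR, beside 11.8% of all tested genes, 0 lower, beside 13.9%, and 71 did not pass. Other counts lay further from their background. At an unadjusted p below 0.05 in edgeR, 33 of the 80 were higher (18.6% of all tested genes) and 0 lower (2771 of 13406). DESeq2 called 28 higher (14.4%) and 0 lower (2220 of 13406). In 47 (58.8%) all LSK-derived libraries lay above all GMP-derived ones (22.5%). The edgeR count was 19 with upper-quartile scaling (13.1% of all tested genes) and 3 with no filter on low counts (6.65%). In the fits without a library it ran from 0 (without LSK 44, 6.25%) to 6 (without GMP 5, 11.1%). Reads of ribosomal protein genes can be shared with their many processed pseudogenes. Rpl7a was at 983 ± 32.5 against 783 ± 32.8 CPM, Rps3 at 1659 ± 65.5 against 1368 ± 26.3 CPM and Rpl14 at 836 ± 27.8 against 693 ± 33.1 CPM. LSK 45 was the highest of 6 libraries in 56 of the 80 ribosomal protein genes, whereas it was the highest in 0 of the 34 ribosome biogenesis genes and the lowest of its group in 31. LSK 44 was the highest in 4 of the 80 and in 26 of the 34. Over all 13406 tested genes LSK 45 was the highest in 2099 and LSK 44 in 1968.

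Cell cycle genes shared part of the library order of the ribosome biogenesis genes with a median difference between groups near 0. LSK 45 was the lowest of its group in 20 of 20 cell cycle genes and GMP 19 in 15 of 20. Over all 13406 tested genes these counts were 4863 and 4579. The median log2 fold change of the cell cycle genes was 0.02. Cdk1, the mitotic kinase gene, was called higher (249.6 ± 17.4 against 207 ± 11.5 CPM). Mki67, which encodes the Ki-67 protein, was called lower (547 ± 48.3 against 702 ± 34.2 CPM), and 18 of the 20 did not pass. Of all tested genes 11.8% were called higher and 13.9% lower. The Cdk1 call was lost without LSK 44, LSK 46, GMP 11 or GMP 19 (edgeR adjusted p up to 0.145) and the Mki67 call without LSK 44 or GMP 11 (up to 0.0645).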
